A study of Mus musculus with 15 samples.

Results

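Expression of 5 cytochrome P450 genes was measured in livers of treated, aged and young mice. They were Cyp2a4, Cyp2a5, Cyp2a12 and Cyp2a22, the Cyp2a genes of mouse, and Cyp17a1. They were chosen by name, as steroid and xenobiotic hydroxylases of mouse liver, and are 5 of the 55849 gene rows of the expression table. Their identifiers there are ENSMUSG00000074254 for Cyp2a4, ENSMUSG00000005547 for Cyp2a5, ENSMUSG00000060407 for Cyp2a12, ENSMUSG00000091867 for Cyp2a22 and ENSMUSG00000003555 for Cyp17a1. RNA was sequenced from 15 liver libraries in 3 groups of 5. The first group is labelled KSL0608-Se + irradiation and is called treated below. KSL0608-Se is known here only by this code name, and the series title names a photoactivatable senolysis, the killing of senescent cells. The other groups are labelled aged control and young control. Each library is labelled with its tissue, group and replicate number. No strain, age, sex, dose or light setting is given, nor the age of the treated mice. Whether each library came from its own animal is not said, so a p-value here reflects only how far the libraries of a group spread, technical spread included.

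Cytochrome P450 enzymes are haem proteins of the endoplasmic reticulum that insert an oxygen atom into lipophilic molecules, taking electrons from the reductase Por. Cyp2a4 and Cyp2a5 are near-identical in sequence and differ in substrate. Cyp2a4 hydroxylates testosterone and other steroids and is known for higher expression in female mouse liver, while Cyp2a5 hydroxylates coumarin and also oxidizes nicotine and bilirubin. Cyp2a12 is a testosterone hydroxylase of mouse liver, and Cyp2a22 is its closest relative among the 4. Cyp17a1 is the hydroxylase and lyase that turns progestogens into androgen precursors, and it is best known from the gonads.

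The sequences of Cyp2a4 and Cyp2a5 are shown because the levels of both genes depend on telling their reads apart, and because Cyp2a4 passed the test in 1 comparison and Cyp2a5 in none. In RefSeq on GRCm38.p6, all 4 Cyp2a genes lie on chromosome 7 and Cyp17a1 on chromosome 19. In the order along chromosome 7, Cyp2a5 follows directly on Cyp2g1, only the pseudogene Cyp2a21-ps lies between Cyp2a22 and Cyp2a12, and 8 annotated genes or pseudogenes lie between Cyp2a4 and Cyp2a5. The RefSeq table held a promoter window for 4 of the 5 genes, those of the Cyp2a group. The 250 bases before the start of Cyp2a4, at chr7:26306942-26307191 on the plus strand of GRCm38.p6, and of Cyp2a5, at chr7:26835089-26835338 on the plus strand, are given here 5′ to 3′ with the bases that differ between them, or that have no partner at the window's end, in capitals:
Cyp2a4: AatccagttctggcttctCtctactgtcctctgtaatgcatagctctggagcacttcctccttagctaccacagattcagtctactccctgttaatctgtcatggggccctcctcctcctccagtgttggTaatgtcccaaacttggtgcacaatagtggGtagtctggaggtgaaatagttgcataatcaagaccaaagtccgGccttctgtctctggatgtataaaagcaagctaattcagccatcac
Cyp2a5: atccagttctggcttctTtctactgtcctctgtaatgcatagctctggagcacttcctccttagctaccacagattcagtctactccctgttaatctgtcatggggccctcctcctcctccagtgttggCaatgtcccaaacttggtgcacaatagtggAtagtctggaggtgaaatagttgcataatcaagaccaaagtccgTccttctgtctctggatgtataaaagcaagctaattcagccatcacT
Of 249 aligned bases 245 were identical (98.4%), and 4 differed. The promoter windows of Cyp2a12 and Cyp2a22 were identical at 215 of 239 aligned bases. Cyp2a4 was 61.5% identical to Cyp2a12 and 60.1% to Cyp2a22 over the bases that aligned.

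In the GENCODE M21 transcripts, the coding sequences of Cyp2a4 and Cyp2a5 were each 1482 bases long and differed at 23 bases, in 23 codons, which is 98.4% identity. The longest run without a difference was 216 bases. The stretch of 90 coding bases with the most differences, coding bases 580 to 669 counted from the first base of the start codon, held 5 of them, in capitals:
Cyp2a4: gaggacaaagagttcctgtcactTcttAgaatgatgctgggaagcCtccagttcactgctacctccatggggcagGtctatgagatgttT
Cyp2a5: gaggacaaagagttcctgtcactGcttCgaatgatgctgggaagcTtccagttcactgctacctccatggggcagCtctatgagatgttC
With the base of Cyp2a4 first and that of Cyp2a5 last, these are T603G, A607C, C625T, G655C and T669C. C625T lies in codon 209, whose residue is known to decide between steroid and coumarin hydroxylation in these enzymes. Cyp2a12 and Cyp2a22 differed at 45 of 1476 coding bases (97.0% identity). Cyp2a4 and Cyp2a12 were 75.7% identical, and Cyp17a1 was 58.6% to 60.2% identical to the Cyp2a genes over the bases that aligned.

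Reads can therefore be shared within each pair. Of all windows of 100 bases in the Cyp2a4 transcript, 11.2% occurred unchanged in a transcript of another gene, and the share was 14.4% for Cyp2a5, 6.8% for Cyp2a12, 6.4% for Cyp2a22 and 0.0% for Cyp17a1. With windows of 50 bases it was 38.8% for Cyp2a4, 40.8% for Cyp2a5, 27.5% for Cyp2a12 and 25.7% for Cyp2a22. With 150 bases it was 4.2% for Cyp2a4 and 5.8% for Cyp2a5. The read length is not given in the sources used here, and how shared reads were divided between genes was not tested. The levels of Cyp2a4 and Cyp2a5 are therefore given singly and as a sum, in which that division matters less, though not nothing, since TPM divides by transcript length and the transcripts were 1738 and 2013 bases long. The pseudogene Cyp2a21-ps, which shares windows with both, reached at most 0.21 TPM in any library.

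All values are TPM, a length-corrected transcript abundance that sums to the same total in each library, as the authors deposited it, so levels can be compared between genes. TPM keeps no sequencing depth, which is unknown here. All 5 genes averaged 1 TPM or more across the libraries, the condition for testing, which 12168 genes met. Differences were fitted with limma on log2(TPM + 1) in 1 model over all 3 groups and adjusted over all 12168 genes by the Benjamini-Hochberg method. The 3 comparisons share libraries and are not independent of each other. A gene was called at an adjusted p under 0.05, rose and fell are used of called genes, and fold changes on this scale understate changes of low genes.

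**Figure D1:**
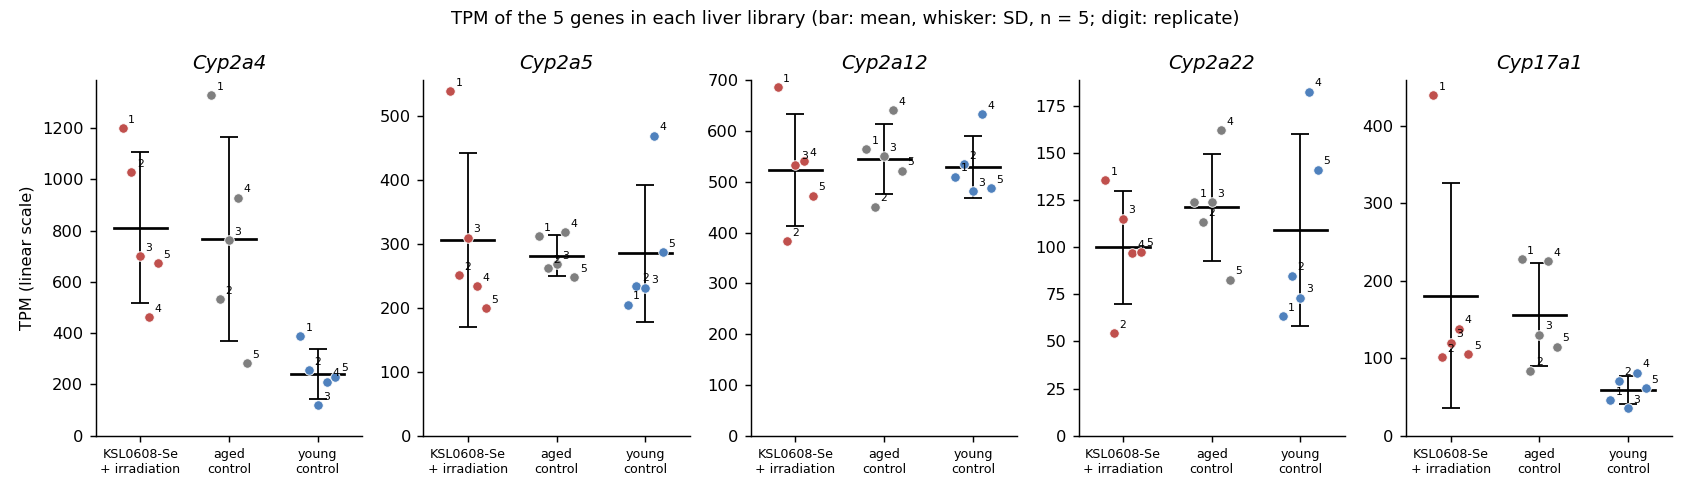
TPM (linear axis from 0) of the 5 genes in each library, with treated, aged and young livers from left to right in each panel, 1 point per library with its replicate number, and the mean and SD of each group (n = 5). All 5 treated libraries lie above all 5 young libraries for Cyp2a4 and Cyp17a1, while the groups overlap for Cyp2a5, Cyp2a12 and Cyp2a22.

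The mean level of Cyp2a4 was higher in treated livers than in young livers, by a difference that passed the test, and its mean in aged livers was close to that in treated livers, by a difference from young livers that did not pass. It stood at 1198.73, 1027.36, 699.28, 463.45 and 672.39 TPM in treated replicates 1 to 5, at 1328.51, 532.37, 762.85, 928.62 and 284.05 TPM in aged replicates 1 to 5, and at 389.3, 254.81, 119.92, 211.12 and 230.7 TPM in young replicates 1 to 5. Every treated library was above every young one, and 4 of 5 aged libraries were, with aged 5 inside the young range. The groups averaged 812 ± 296 TPM in treated, 767 ± 397 TPM in aged livers and 241 ± 97.3 TPM in young livers (SD, n = 5 each). Among 66 tested P450 genes this put Cyp2a4 at place 6 in treated and in aged livers by mean TPM, and at place 21 in young livers.

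Against young livers, Cyp2a4 rose in treated livers by 1.77 on the log2 scale, a fold of 3.4 with a 95% interval of 1.91 to 6.05 (SE 0.39, limma adjusted p = 0.0238). It was the 1 member called in this comparison, where 2.91% of all genes were called and 2.18% were called higher. An unadjusted p under 0.05 was reached by 2 of the 5 members, Cyp2a4 and Cyp17a1, and by 17.8% of all genes. For the same 2 members all treated libraries were above all young ones, as for 3.14% of all genes, and the groups did not overlap in either direction for 4.09%. The Cyp2a4 call held in 11 of 15 fits without 1 library. It ended without treated 2 (adjusted p = 0.0725), treated 5 (0.0504), young 3 (0.0617) or young 5 (0.0543), and with no filter on low genes (0.0639). The log2 difference ranged from 1.54 to 1.96 over all alternatives.

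Between aged and young livers the log2 difference of Cyp2a4 was 1.58, a fold of 3.0 with a 95% interval of 1.69 to 5.33 (SE 0.39). It did not pass the adjustment (limma unadjusted p = 0.001, adjusted p = 0.0736). No member was called in this comparison, where 1.08% of all genes were called, and 2 of the 5, Cyp2a4 and Cyp17a1, had an unadjusted p under 0.05, as did 8.72% of all genes. Cyp2a4 passed without aged 5 (log2 difference 1.90, adjusted p = 0.0118). It passed too when young 4, aged 5 and treated 1 were all left out (1.87, adjusted p = 0.0253), and over all alternatives its adjusted p ranged from 0.0118 to 0.188. Fits without aged 5 leave out the lowest aged value of Cyp2a4 itself, so they give no separate support for a difference. Aged 5, the lowest aged library for Cyp2a4, had the highest summed level of 17 immune cell markers, 4791.83 TPM, against 636.38 to 1709.36 TPM in the other aged libraries. Treated 4, the lowest treated library, had the highest sum among treated libraries, 3585.92 TPM. The antibody gene Igkc held 3654.24 TPM of the sum in aged 5 and 2852.09 TPM of that in treated 4. Young livers, with the lowest mean of Cyp2a4, had the lowest sums, 151.65 to 301.72 TPM. The part of these sums in the Cyp2a4 values was not tested. In bulk tissue fewer hepatocytes and less RNA per hepatocyte cannot be told apart.

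Treated and aged livers overlapped for Cyp2a4. Their log2 difference was 0.18, a fold of 1.13 with a 95% interval of 0.638 to 2.02 (SE 0.39, limma adjusted p = 0.966). Between these groups 0.00822% of all genes were called, which is 1 gene, and none of the 5 members. An unadjusted p under 0.05 was reached by 4.41% of all genes and by none of the members. All treated libraries were above all aged ones for 0.403% of all genes, the groups did not overlap in either direction for 0.69%, and all 5 members overlapped.

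Cyp2a5, the near-identical coumarin hydroxylase, was called in no comparison, and whether its differences were smaller than those of Cyp2a4 was not tested. It stood at 538.12, 250.89, 309.81, 233.33 and 198.96 TPM in treated replicates 1 to 5, at 311.47, 262.12, 267.9, 318.58 and 247.74 TPM in aged replicates 1 to 5, and at 204.7, 234.0, 230.22, 469.29 and 286.87 TPM in young replicates 1 to 5. The 3 groups overlapped. Treated 1 and young 4 were the 2 highest of the 15 libraries, and the aged libraries lay closest together. Cyp2a5 averaged 306 ± 136 TPM in treated, 282 ± 31.5 TPM in aged livers and 285 ± 107 TPM in young livers (SD, n = 5 each). Its log2 difference was 0.08 between treated and young livers (95% interval of the fold 0.732 to 1.52, limma adjusted p = 0.908), 0.03 between treated and aged (0.711 to 1.48, adjusted p = 0.994) and 0.04 between aged and young (0.715 to 1.48, adjusted p = 1.0). These intervals leave room for changes of up to about these folds. The sign turned in other fits, as given in the closing section.

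**Figure D2:**
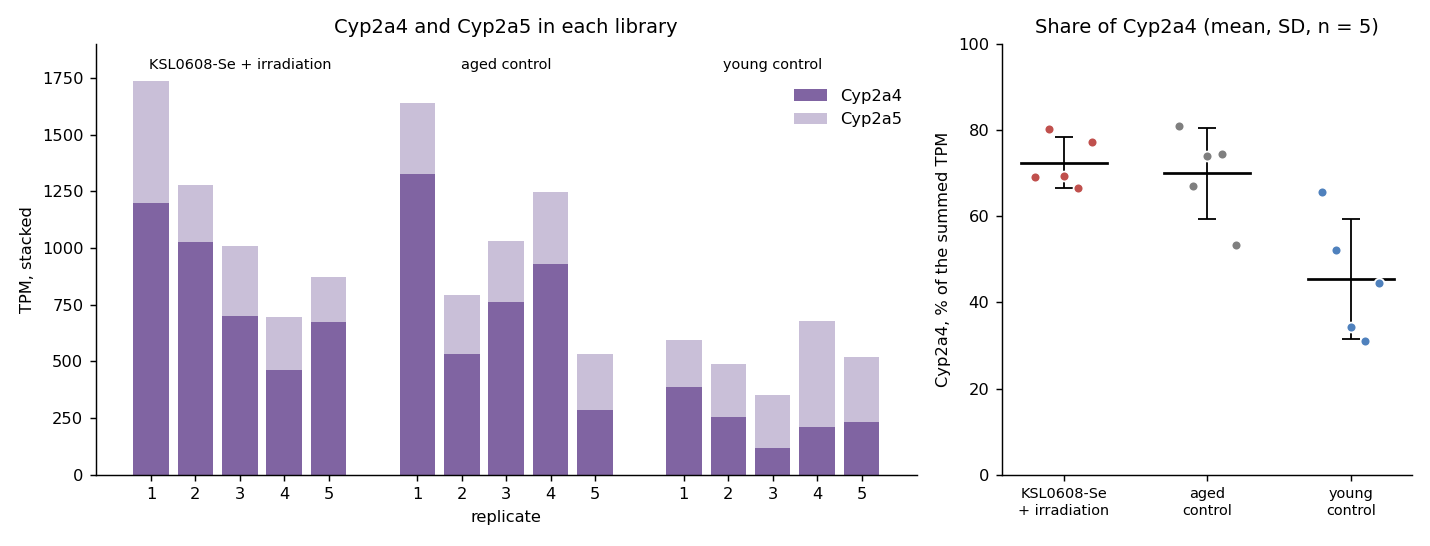
Left, TPM of Cyp2a4 (dark) and Cyp2a5 (light) stacked in each library, with treated, aged and young livers from left to right. Right, Cyp2a4 as a percentage of the summed TPM of both genes, 1 point per library, with the mean and SD of each group (n = 5); all treated libraries lie at 66.5% or more, and 4 of 5 young libraries lie below every aged library.

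The share of Cyp2a4 within the pair had its lowest mean in young livers. Cyp2a4 made up 69.0%, 80.4%, 69.3%, 66.5% and 77.2% of the summed TPM of both genes in treated replicates 1 to 5. The share was 81.01%, 67.0%, 74.0%, 74.5% and 53.4% in aged replicates 1 to 5, and 65.5%, 52.1%, 34.2%, 31.0% and 44.6% in young replicates 1 to 5. Every treated library was thus above every young one, young 1 by the least, and aged 5 lay inside the young range. The mean was 72.5 ± 5.96% in treated, 70.0 ± 10.5% in aged livers and 45.5 ± 14.0% in young livers (SD, n = 5 each). As a ratio, Cyp2a4 was at 2.79 ± 0.908 times the level of Cyp2a5 in treated, 2.64 ± 1.16 times in aged and 0.953 ± 0.588 times in young livers. These shares are descriptions and rest on how reads were divided between the genes.

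The sum of Cyp2a4 and Cyp2a5 averaged 1118 ± 406 TPM in treated, 1049 ± 425 TPM in aged livers and 526 ± 123 TPM in young livers (SD, n = 5 each). It was at 696.78 TPM or more in treated livers, at 531.79 to 1639.98 TPM in aged livers, and at 350.14 to 680.41 TPM in young livers. Treated and young livers did not overlap, with a log2 difference of 1.05 (exact two-sided permutation test, p = 0.00794, the smallest that 252 splits of 5 against 5 can give, and 0.0238 adjusted over the 3 comparisons). Aged livers exceeded young livers by 0.93 (exact permutation p = 0.0238, adjusted p = 0.0357), with aged 2 and the 3 libraries above it higher than every young one and only aged 5 inside the young range. These p-values are adjusted over 3 comparisons, not over 12168 genes as for single genes. By that adjustment Cyp2a4 alone was not called between aged and young livers. The difference of the sum between aged and young livers no longer passed in 6 of the tests without 1 library. These were the tests without young 2, 3 or 5 or aged 1 (adjusted p = 0.0714 each) and without aged 3 or 4 (0.0595 each). Between treated and aged livers the log2 difference was 0.12 (exact permutation p = 0.738).

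Cyp2a12, the testosterone hydroxylase, was called in no comparison and had a coefficient of variation of 21.1% in treated, 12.6% in aged and 11.6% in young livers. It stood at 685.86, 383.56, 533.41, 540.06 and 472.96 TPM in treated replicates 1 to 5, at 563.78, 450.77, 550.68, 640.72 and 521.74 TPM in aged replicates 1 to 5, and at 509.77, 534.53, 481.7, 632.66 and 487.22 TPM in young replicates 1 to 5. The groups overlapped, and the highest and the lowest library were both treated. It averaged 523 ± 111 TPM in treated, 546 ± 68.9 TPM in aged livers and 529 ± 61.5 TPM in young livers (SD, n = 5 each). The log2 difference was −0.03 between treated and young livers (95% interval of the fold 0.780 to 1.22), −0.08 between treated and aged (0.758 to 1.19) and 0.04 between aged and young (0.822 to 1.29), with a limma adjusted p of at least 0.936.

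Cyp2a22 had the lowest level of the 4 Cyp2a genes in each group. It stood at 135.4, 54.31, 115.0, 96.88 and 97.65 TPM in treated replicates 1 to 5, at 123.81, 113.56, 123.92, 162.01 and 82.73 TPM in aged replicates 1 to 5, and at 63.42, 84.84, 73.22, 182.35 and 141.02 TPM in young replicates 1 to 5. The groups overlapped, with young 4 highest and treated 2 lowest. It averaged 99.8 ± 29.9 TPM in treated, 121 ± 28.4 TPM in aged livers and 109 ± 50.9 TPM in young livers (SD, n = 5 each). The log2 difference was −0.07 between treated and young livers (95% interval of the fold 0.623 to 1.46), −0.31 between treated and aged (0.529 to 1.24) and 0.24 between aged and young (0.771 to 1.80), with a limma adjusted p of at least 0.925.

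Cyp17a1, on another chromosome and with no window of 50 bases shared with any other gene, had its lowest mean in young livers, as Cyp2a4 did. It stood at 438.85, 101.53, 119.72, 138.19 and 104.79 TPM in treated replicates 1 to 5, at 227.48, 83.59, 130.1, 225.4 and 114.67 TPM in aged replicates 1 to 5, and at 45.8, 71.19, 35.45, 81.16 and 61.08 TPM in young replicates 1 to 5. All treated and all aged libraries were above all young ones, aged 2 by the least. Treated 1 stood far above the other treated libraries. Cyp17a1 averaged 181 ± 145 TPM in treated, 156 ± 66.2 TPM in aged livers and 58.9 ± 18.5 TPM in young livers (SD, n = 5 each), and it took places 21, 26 and 38 among the 66 P450 genes in treated, aged and young livers.

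Despite the separation of its values Cyp17a1 was not called. Its log2 difference was 1.40 between treated and young livers, a fold of 2.64 with a 95% interval of 1.48 to 4.70 (SE 0.39, limma unadjusted p = 0.00271, adjusted p = 0.0704). Between aged and young livers it was 1.34, a fold of 2.54 with an interval of 1.43 to 4.52 (unadjusted p = 0.00361, adjusted p = 0.154), and all aged libraries were above all young ones for this 1 member and for 2.8% of all genes, with no overlap in either direction for 3.38%. Between treated and aged livers it was 0.05, with an interval of the fold of 0.583 to 1.85 (adjusted p = 0.994). Treated 1 enters the spread that all 3 comparisons share. Without it the difference between aged and young livers passed (1.34, adjusted p = 0.0207), and that between treated and young livers was 1.02 (adjusted p = 0.0592). Without young 4 the difference between treated and young livers passed (1.53, adjusted p = 0.0391). When treated 1, young 4 and aged 5 were all left out, Cyp17a1 passed against young livers in both treated (1.14, adjusted p = 0.0306) and aged livers (1.56, adjusted p = 0.022), as it did with library weights (1.27, adjusted p = 0.0244 in treated, and 1.51, adjusted p = 0.0278 in aged livers). Treated 1 and young 4 held the highest Cyp17a1 values of their groups, so fits without them give no separate support. Most fits did not call Cyp17a1. Of 25 alternatives, 4 called it between treated and young livers (limma adjusted p 0.0244 to 0.159). Between aged and young livers 3 of 25 did (0.0207 to 0.367).

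**Figure D3:**
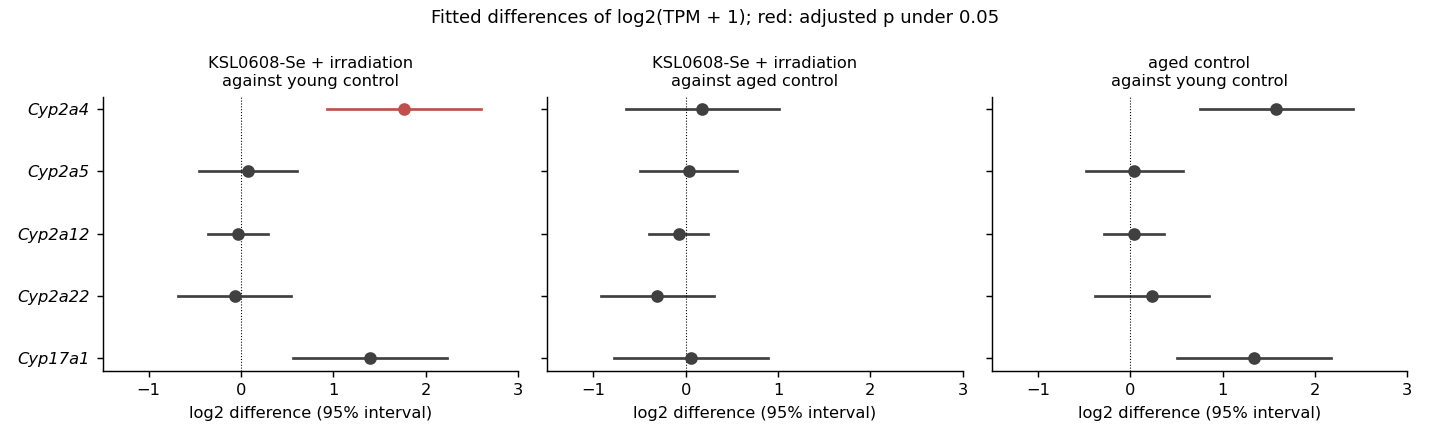
Fitted log2 differences of log2(TPM + 1) with 95% intervals for the 5 genes in the 3 comparisons; red marks an adjusted p under 0.05. Cyp2a4 and Cyp17a1 lie to the right of 0 against young livers, at 1.34 to 1.77, and the intervals of Cyp2a5, Cyp2a12 and Cyp2a22 include 0 in all 3 comparisons.

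The order of mean levels was not the same in each group. In treated and in aged livers Cyp2a4 came first, followed by Cyp2a12, Cyp2a5, Cyp17a1 and Cyp2a22. In young livers it was Cyp2a12, Cyp2a5, Cyp2a4, Cyp2a22 and Cyp17a1. Neighbours in this order overlapped in their library values, except that every Cyp2a12 value was above every Cyp2a5 value in aged and in young livers, and every Cyp2a5 value above every Cyp17a1 value in aged livers. The 5 genes together held 1922 ± 619 TPM in treated livers, 1872 ± 548 TPM in aged livers and 1223 ± 228 TPM in young livers (SD, n = 5 each). Cyp2a4 alone made up 5.15% of the TPM of all 66 P450 genes in treated livers, 4.87% in aged and 1.27% in young livers.

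Within groups the genes moved in 2 ways. Treated 1 was above its group mean for all 5 genes, by 1.54 on the log2 scale for Cyp17a1, 0.91 for Cyp2a5, 0.64 for Cyp2a4, 0.50 for Cyp2a22 and 0.42 for Cyp2a12. Young 4 was above its group mean by 0.86 for Cyp2a22, 0.79 for Cyp2a5, 0.52 for Cyp17a1 and 0.27 for Cyp2a12, but stood at −0.09 for Cyp2a4. Aged 5 was furthest from its group mean in Cyp2a4, at −1.25. Treated 1 also stood apart outside these genes: the neighbouring cluster genes Cyp2b9 and Cyp2b13, both known for female-biased expression, were at 0.73 and 0.8 TPM there, their lowest values in the treated group, in which they averaged 177 ± 125 and 19.5 ± 20.9 TPM.

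**Figure D4:**
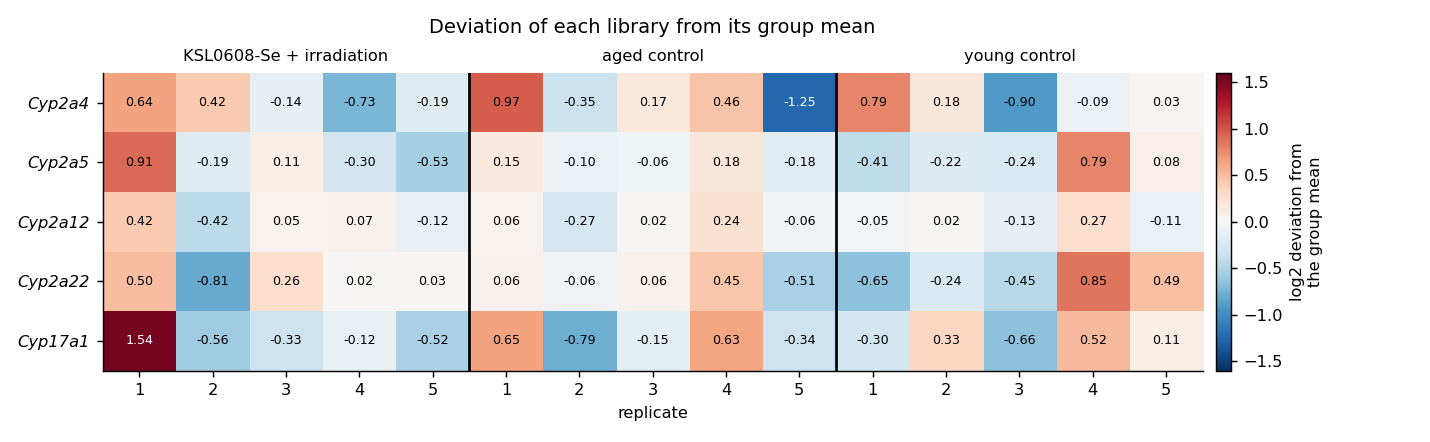
Deviation of each library from its group mean on log2(TPM + 1) for the 5 genes, with treated, aged and young libraries from left to right; red is above and blue below the mean. Treated 1 is above its group mean for all 5 genes, young 4 for all but Cyp2a4, and aged 5 is lowest for Cyp2a4.

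Over the 15 libraries, after removal of the group means, Cyp2a5, Cyp2a12 and Cyp2a22 varied together, with a Pearson correlation of log2(TPM + 1) of 0.72 between Cyp2a5 and Cyp2a12, 0.74 between Cyp2a5 and Cyp2a22 and 0.71 between Cyp2a12 and Cyp2a22. Cyp17a1 went with Cyp2a12 (0.84) and Cyp2a5 (0.78). Cyp2a4 went least with the other Cyp2a genes, at 0.30 with Cyp2a5, 0.24 with Cyp2a12 and 0.16 with Cyp2a22, and its value with Cyp17a1 was 0.53. These are descriptions over libraries that share the TPM scaling, and treated 1 and young 4 weigh in them.

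The genes most like each member over the 15 libraries, by Pearson correlation with the group means left in, differed between the members. For Cyp2a4 they were Pnpla3 (0.927), a lipid droplet acylhydrolase, its relative Pnpla5 (0.925) and Acad9 (0.924), an assembly factor of the respiratory chain. Pnpla3 averaged 20.7 TPM in treated, 12.8 in aged and 1.19 in young livers. For Cyp17a1 they were the major urinary protein pseudogene Mup-ps14 (0.932), the thioesterase gene Acot11 (0.887) and Mup17 (0.878), which encodes a secreted pheromone carrier. Acot11 averaged 4.55 TPM in treated, 3.95 in aged and 1.29 in young livers. For Cyp2a5 they were n-R5s107 (0.854), listed at 0 in all 5 aged libraries, the secreted protein gene Spp2 (0.779) and the oxysterol hydroxylase gene Cyp7b1 (0.767). For Cyp2a12 they included Tlcd2 (0.695) and Vnn3 (0.694). For Cyp2a22 they were the glutathione transferase gene Gstt1 (0.746), Fam89a (0.58) and Vnn3 (0.568).

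Other P450 genes of the same cluster did not move as one. Of 9 listed neighbours 5 were tested. Against young livers, Cyp2g1, which lies next to Cyp2a5 and is best known from olfactory mucosa, rose in treated livers, to 34.4 ± 16.6 TPM against 8.12 ± 3.04 TPM in young livers (log2 difference 1.88, limma adjusted p = 0.00693). It rose in aged livers too, to 26.2 ± 9.21 TPM (1.58, adjusted p = 0.0315). Cyp2b10, an inducible drug hydroxylase, rose in aged livers, at 52.4 ± 14.0 TPM against 24.9 ± 7.09 TPM in young livers (1.05, adjusted p = 0.0497). Cyp2b13 fell in treated livers, at 19.5 ± 20.9 TPM against 280 ± 101 TPM in young livers (−4.46, adjusted p = 0.0167). In aged livers Cyp2b13 was low as well, at 46.8 ± 40.7 TPM, but was not called against young livers. The median over the 5 was −0.29 between treated and young livers and −0.17 between aged and young livers, beside 0.06 and 0.04 over all genes. None of the 5 was called between treated and aged livers.

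Among 33 tested genes of liver steroid metabolism, none was called higher and 4 were called lower in treated against young livers. Of all genes 2.18% were called higher and 0.731% lower there. In the list 15 differences were above 0 and 18 below. Hsd3b3, a steroid dehydrogenase, fell to 49.6 ± 21.9 TPM against 178 ± 35.9 TPM in young livers (log2 difference −1.93, limma adjusted p = 0.000906). The hydroxysteroid dehydrogenase genes Hsd17b11 (−0.91, adjusted p = 0.00568), Hsd17b6 (−1.45, adjusted p = 0.0245) and Hsd3b2 (−1.12, adjusted p = 0.0308) fell as well. Hsd3b3 was the 1 gene of the list called between aged and young livers, where it fell to 66.8 ± 12.1 TPM (−1.39, adjusted p = 0.0171). Of all genes 0.156% were called lower in that comparison. The list's median was −0.12 between treated and young and −0.03 between aged and young livers. None was called between treated and aged livers, where the median was 0.03.

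Partner and regulator genes of these enzymes were counted too. Over all genes 2.91% were called in treated against young livers, 1.08% in aged against young livers and 0.00822% in treated against aged livers. With shares this low, lists of this size may hold no called gene, so the absence of calls says little. None of 8 tested electron donors and other P450 partners, Pgrmc1 and Pgrmc2 among them, was called in any comparison. Por, the P450 reductase, stood at 125 ± 33.4 TPM in treated, 160 ± 28.5 TPM in aged and 187 ± 61.4 TPM in young livers (log2 difference of treated from young −0.52, limma adjusted p = 0.281). None of 13 genes of haem synthesis and breakdown was called, with Cpox, an enzyme of haem synthesis, nearest, at 28.9 ± 8.85 TPM in treated and 53.9 ± 15.04 TPM in young livers (−0.88, adjusted p = 0.0659). None of 27 regulators linked to Cyp2a5 or Cyp17a1 was called. The repressor gene Nr0b2 stood at 36.9 ± 11.7 TPM in treated, 29.1 ± 6.09 TPM in aged and 63.5 ± 22.5 TPM in young livers (log2 difference of aged from young −1.05, adjusted p = 0.0582).

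Cyp2a4 is known as a gene of female-biased expression, and other genes with a sex bias in mouse liver were counted beside it. Of 22 genes known for higher expression in female liver, 10 were called higher and 3 lower in treated against young livers, where 2.18% of all genes were called higher and 0.731% lower, and the list's median was 1.02. In aged against young livers 11 were called higher and none lower, where 0.929% of all genes were called higher and 0.156% lower, and the median was 0.84. Of 18 genes known for higher expression in male liver, 12 were tested. The others did not reach the mean of 1 TPM, among them Cyp4a12a and Hsd3b5, which averaged 0.05 and 0.54 TPM in young livers. Of the 12 tested, 3 were called lower in treated and 2 in aged livers against young, and none was called higher. In each of these comparisons 3 of the 12 differences were above 0. A1bg, a plasma glycoprotein gene of female liver, averaged 3405 ± 878 TPM in treated, 3955 ± 1695 TPM in aged and 20.6 ± 12.99 TPM in young livers. Cyp3a44, a steroid hydroxylase gene, averaged 464 ± 79.3 TPM in treated, 364 ± 128 TPM in aged and 7.18 ± 5.19 TPM in young livers, and Cyp2d9, a male-biased P450, averaged 3.78 ± 2.74 TPM in treated, 4.04 ± 1.24 TPM in aged and 68.8 ± 24.0 TPM in young livers. The list of female-biased genes includes Cyp2b9 and Cyp2b13, and neither list holds a member. None of these genes was called between treated and aged livers.

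Genes of hepatocyte zonation were counted as well. Of 20 pericentral hepatocyte genes, 4 were called lower and none higher in treated against young livers, where 0.731% of all genes were called lower. Of the 20 differences 15 were below 0 and 5 above, with a median of −0.29. Those called were Cyp1a2, a drug hydroxylase, at 214 ± 41.8 TPM in treated and 457 ± 152 TPM in young livers (log2 difference −1.05, limma adjusted p = 0.00829), Cyp2e1, the ethanol-oxidizing P450 (−1.32, adjusted p = 0.00976), the glutamate transporter gene Slc1a2 (−0.61, adjusted p = 0.0194) and Gulo, of vitamin C synthesis (−0.64, adjusted p = 0.0348). None was called between aged and young livers, where 19 of the 20 differences were below 0 and 1 above (median −0.24). Nearest to a call there were Slc1a2 (−0.54, limma adjusted p = 0.0686) and Cyp1a2 (−0.79, adjusted p = 0.0729). Of 16 periportal genes 1, Hsd17b6, was called lower in treated against young livers, while 14 of the 16 differences were below 0, with a median of −0.37. In aged against young livers none of the 16 was called, and 13 differences were below 0 and 3 above, with a median of −0.21.

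The tissue label was checked with marker genes. The summed TPM of 14 hepatocyte markers was 101806 to 133760 in treated, 102705 to 130858 in aged and 115488 to 166274 in young livers, and none of the 14 was called. The sum of 17 immune cell markers was 396 to 3586 TPM in treated and 636 to 4792 TPM in aged livers. In young livers it was 152 to 302 TPM. All 17 had log2 differences above 0 in treated and in aged against young livers. Of these, 4 were called in treated and 2 in aged livers, where 2.18% and 0.929% of all genes were called higher. Markers of endothelial, stellate and bile duct cells summed to 207 to 299 TPM in treated, 176 to 295 TPM in aged and 130 to 269 TPM in young livers, with none called. Those of pancreas, gut and kidney summed to 54.3 to 81.7 TPM in treated, 43.9 to 77.7 TPM in aged and 36.6 to 83.0 TPM in young livers, and none of the 2 tested was called. Their part in the results above was not tested. Markers of adrenal gland and gonads, tissues known for Cyp17a1 or for steroid synthesis, summed to 1.2 to 2.75 TPM in treated, 0.69 to 1.65 TPM in aged and 0.6 to 1.35 TPM in young livers over 11 genes, none of which passed the filter, and Cyp11b1, Cyp19a1, Lhcgr and Mc2r were listed at 0 in every library.

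Short motifs were looked for on both strands of the promoter windows of the 4 Cyp2a genes, in the 250 bases before the start. TTATGTAA and TTACGTAA, letters bound by PAR bZIP factors, occurred in none of them and in 0.82% and 0.11% of all 32851 promoter windows. TTCNNNGAA, the core bound by STAT5, occurred in none of them and in 7.02% of all windows, and CAAAGTCCA, bound by HNF4A, in none of them and in 0.38%. None of the 4 motifs contains another. These counts say only that the letters are not in these windows.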

How the data were processed

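Total liver RNA was extracted with TRIzol and treated with DNase for 15 libraries, per the labels' protocols. The submitters' processing notes name fastp, HISAT, RSEM and the build GRCm39, with no version, setting or order. The authors deposited TPM to 2 decimals. Depth is unknown, so no counting interval or floor was computed. The table's 3 columns of group means were not used.

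Genes averaging 1 TPM or more were analysed as log2(TPM + 1) with limma 3.58.1 in R 4.3.3, all 3 groups in 1 model, with trend and robust estimation, and called at a Benjamini-Hochberg adjusted p under 0.05. The procedure was tested on simulated data. The summed pair was compared by exact permutation. Named genes are the 5 members, the 3 genes most correlated with each (predicted genes left out), and in each list the called genes, at most 4 by p, or the 2 with the smallest p where none was called. Not every such gene is printed, and 1 gene most correlated with Cyp2a12 is not reported here. The members, lists and tests were chosen with earlier results of these data known. Alternatives varied the pseudocount, filter, scaling, weights, groups, replicate block and libraries. Sequences came from RefSeq (GRCm38.p6) and GENCODE M21 transcripts and were aligned with Biopython 1.88; no coordinates of the authors' build are given.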

Additional observations from a re-analysis of the deposited data

Results flagged for a closer look

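Of 30 sets of 5 values examined, the 5 genes, their sums, and the share and ratio within the pair in each of the 3 groups, 3 held a library that stood apart from the other 4 by Dixon's ratio, which flags about 1 in 20 sets by chance. The sets share genes and are not independent. Cyp17a1 was at 438.85 TPM in treated 1, while the other treated libraries lay at 101.53 to 138.19 TPM (ratio 0.891, critical value 0.71). The summed TPM of all 5 genes was 2996.96 in the same library, against 1471.91 to 1817.65 in the other treated libraries (ratio 0.773). The sum of Cyp2a12 and Cyp2a22 was 815.01 TPM in young 4, against 554.92 to 628.24 TPM in the other young libraries (ratio 0.718).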

How the results depend on the processing

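Cyp2a4 and Cyp17a1 had positive differences from young livers, in treated and in aged livers, under all 25 alternatives. For treated against young livers (354 genes, 1 member) the calls were 188 genes and 0 members with no filter, 217 genes with a filter at 5 TPM, 574 with quantile normalization, 598 with median-ratio scaling, 1538 and 2 members with library weights, and 1458 and 2 members without young 4, aged 5 and treated 1 together. Without 1 library they were 183 to 1192 genes and 0 to 2 members. For aged against young livers (132 genes, 0 members) they were 76 genes with a filter at 5 TPM, 244 genes and 1 member with library weights, and 2 members without those 3 libraries, and 79 to 165 genes and 0 to 1 members without 1 library. For treated against aged livers (1 gene, 0 members), limma called 0 genes with the filter at 5 TPM, where 280 had an unadjusted p under 0.05, and 1 to 2 genes without 1 library.

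Some differences of members turned sign between fits, and none of these was called in any fit. With median-ratio scaling, Cyp2a5 was at −0.019 and Cyp2a12 at −0.021 in aged against young livers. With library weights, Cyp2a5 was at −0.076 and Cyp17a1 at −0.25 in treated against aged livers, and Cyp2a22 at 0.10 in treated against young livers. Without the 3 libraries together, Cyp2a4 was at −0.29, Cyp2a5 at −0.24 and Cyp17a1 at −0.41 in treated against aged livers, and Cyp2a22 at 0.022 in treated against young livers. Without 1 library, the ranges in treated against aged livers were −0.13 to 0.43 for Cyp2a4, −0.19 to 0.17 for Cyp2a5, −0.18 to 0.029 for Cyp2a12 and −0.33 to 0.22 for Cyp17a1. In treated against young livers they were −0.15 to 0.27 for Cyp2a5, −0.14 to 0.070 for Cyp2a12 and −0.23 to 0.15 for Cyp2a22, and in aged against young livers −0.059 to 0.24 for Cyp2a5 and −0.018 to 0.11 for Cyp2a12. The summed pair ranged from 0.87 to 1.20 in treated against young, −0.10 to 0.31 in treated against aged and 0.74 to 1.15 in aged against young livers. The causes were not tested.

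Whether equal replicate numbers pair the libraries is not said. Deviations of libraries with equal numbers correlated at −0.249 to 0.309, and 1 to 4 of 10 libraries correlated best with their own number. With so few libraries this cannot decide on a pairing. With the replicate block, 1 member was called in aged against young livers, Cyp2a4 (adjusted p = 0.0334), and 2 in treated against young livers, Cyp17a1 being the other (0.0468). In the summed pair the block gave 1.05 in treated against young and 0.93 in aged against young livers (adjusted p = 0.0938 each, exact sign permutation, where 5 pairs cannot go below 0.0625 unadjusted). TPM keeps no depth, so its limit on low values could not be set.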
